A study of Homo sapiens with 6 samples.

Results

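The kinesin motor superfamily was followed in transcripts of HepG2 cells treated with polydatin (PD), a plant compound, or with DMSO. Its members were the protein-coding genes whose symbol is KIF or KIFC followed by a digit, together with CENPE, which encodes a kinesin under another name. GENCODE release 44 has 43 such genes, of which 40 had a row among the 28563 genes of the deposited table and 32 reached a mean of 0.5 FPKM and were tested. FPKM is a measure of transcript level, the number of sequenced fragments scaled by gene length and library total. HepG2 is an established human cell line derived from a liver cancer. The labels give 336 µM PD for 24 h for the PD group and DMSO for 24 h for the control group, with 3 numbered replicates in each group. That these were 3 separate plates of cells per group is taken from the methods of the study. The methods of the study give a lower dose of PD than the labels, and which of them was used is not settled here. Both groups are the same line and differ by PD alone, so that p-values measure the spread between plates and not between donors.

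Kinesins are motors that use ATP to walk along microtubules or to take microtubule ends apart. Mitotic kinesins build the bipolar spindle, move and hold chromosomes, and organise the midzone between the separating chromosomes where the cell will divide, and most of their genes are transcribed in the G2 and M phases of the cell cycle. Transport kinesins carry organelles, vesicles and proteins through the cytoplasm and along cilia in non-dividing and dividing cells alike. Of the 43 genes, 15 were placed in a mitotic class, 15 in a transport class and 13 among other kinesins, which remodel microtubule ends, act in cilia or signalling, or are little studied. KIF2B, KIF6 and KIF19 were not analysed here. KIF4B, KIF5A, KIF5C, KIF3C, KIF1A, KIF26B, KIF12 and KIF25 were listed but stayed under the minimum of 0.5 FPKM.

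The 6 libraries held 16308476 to 18071632 fragments each, and each tested kinesin rested on at least 48 fragments in every library. The distance between libraries, as a chi-square per gene over fragments, was 2.34 to 3.64 within a group and 46.6 to 54.3 between groups, so no library stood apart from its group. The hepatic identity named in the labels had little support among the markers examined. Of 12 hepatocyte markers 6 were listed, of which CPS1 and RBP4 exceeded 1 FPKM in at least 1 library, whereas HNF4A, APOA1, SERPINA1 and TF stayed at or near 0. The others, ALB, AFP, APOB, TTR, FGB and AHSG, had no row, and no gene with a row was at 0 in all 6 libraries. HepG2 is therefore the name given by the labels, and the identity of the line was not tested. The summed level of the hepatocyte list, nearly all of it CPS1, was 222.1 to 229.0 FPKM in DMSO and 107.3 to 112.6 FPKM in PD. Of 5 epithelial markers EPCAM, KRT8 and KRT18 reached 1 FPKM, with sums of 95.4 to 101.4 FPKM in DMSO and 113.9 to 119.9 FPKM in PD. KRT8 was higher in PD (means of 50.1 and 68.9 FPKM), EPCAM and KRT18 overlapped between groups, CDH1 was lower near 0 and KRT19 had no row. Of 5 fibroblast markers COL1A1 and PDGFRB did, with sums of 4.40 to 5.29 FPKM and 4.75 to 5.05 FPKM. No listed marker of leukocytes, endothelial cells or neurons reached 1 FPKM, and the neuronal list summed to 0.501 to 0.803 FPKM in DMSO and 1.14 to 1.37 FPKM in PD. Its members went both ways, with MAP2 and SNAP25 higher in PD and SYT1 and RBFOX3 lower.

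PD lowered most mitotic kinesin transcripts and raised none of them at an adjusted p of at most 0.05, while transport kinesins moved in both directions. In limma on log2(FPKM + 1), with p-values adjusted by the Benjamini-Hochberg method over 14400 genes, 15 of the 32 tested kinesins fell and 7 rose. The treatment changed a large part of the transcriptome, since 26.2% of all tested genes fell and 31.9% rose by the same rule, 58.1% in all. Rises made up 54.8% of these calls, and 39.1% with FPKM scaled by the upper quartile. Among 13 tested mitotic kinesins 10 fell and 3 did not pass, with a median log2 change of -0.47 (PD over DMSO). Among 11 tested transport kinesins 3 fell and 5 rose, with a median of 0.22 that dropped to 0.0641 without a filter, 0.12 with upper quartile scaling and 0.12 without DMSO replicate 2. Among 8 other kinesins 2 fell and 2 rose, with a median of 0.03. The median over all 14400 genes was 0.01. PD and DMSO libraries did not overlap for 24 of the 32 kinesins, that is 11 mitotic, 8 transport and 5 other, against 65.4% of all tested genes. For any kinesin without overlap the exact two-sided permutation test over 3 and 3 libraries gave p = 0.10, the smallest it can give, so calls rest on the fit across all genes. In RNA from whole plates, fewer cells in a phase or of a type and less of a transcript per cell cannot be told apart.

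**Figure D1:**
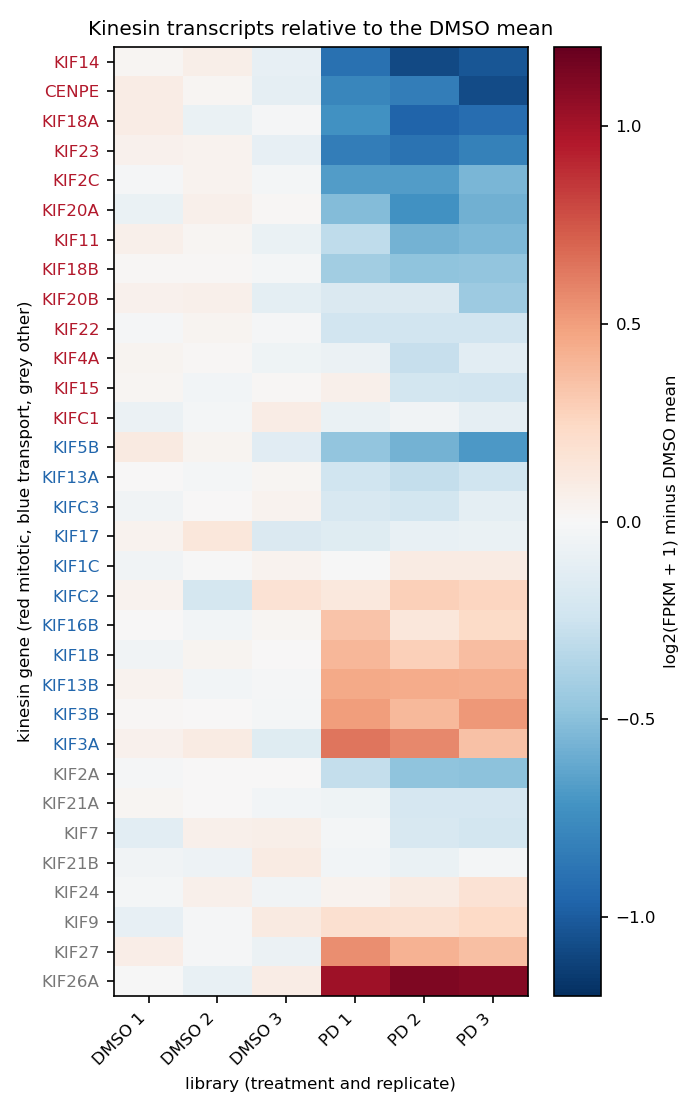
Each row is a tested kinesin and each column a library, and colour gives log2(FPKM + 1) minus the DMSO mean of that gene, blue for lower and red for higher. Rows are ordered by class (mitotic red, transport blue and other grey names) and by change, and the PD columns of KIF14, CENPE, KIF18A and KIF23 were the darkest blue and those of KIF26A the darkest red.

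Of the mitotic kinesins that act at spindle poles and chromosomes, 6 of 8 tested fell, with a median log2 change of -0.47. CENPE (ENSG00000138778, chr4:103105349-103198445), the motor that carries chromosomes from the spindle poles to its equator, stood at 6.01, 5.70 and 5.12 FPKM in DMSO and 2.83, 2.71 and 2.14 FPKM in PD. Every PD value lay under the lowest DMSO value, and the mean was 2.19-fold lower in PD (log2 change -0.90 ± 0.09 SE, limma adjusted p = 0.00015). KIF18A (ENSG00000121621, chr11:28020619-28108156) damps the movements of aligned chromosomes at the plus ends of kinetochore microtubules. It measured 8.05, 7.07 and 7.44 FPKM in DMSO and 4.14, 3.36 and 3.51 FPKM in PD, again without overlap. The mean was 2.05-fold lower (log2 change -0.87 ± 0.08 SE, limma adjusted p = 7.7e-05). CENPE, KIF14 and KIF18A were singled out in the study on these same libraries, so their direction is not independent evidence. The study also reported lower levels of these genes by RT-qPCR, which was not examined here.

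KIF2C (ENSG00000142945, chr1:44739818-44767767), also called MCAK, takes apart microtubule ends and corrects wrong attachments of chromosomes. It had the highest mean level of the mitotic kinesins in DMSO, with 44.6, 46.5 and 44.5 FPKM, and 28.0, 28.1 and 30.6 FPKM in PD. The groups were well apart, with a mean 1.56-fold lower in PD (log2 change -0.63 ± 0.04 SE, limma adjusted p = 2.5e-05). Its exons overlap an antisense transcript over 175 bases, and whether the counting used strand is not given in the sources used here, so a small part of its fragments is uncertain. The same limit holds, over more of their exons, for KIFC1 (424 bases with RPL12P1), KIF9 (870 bases with KIF9-AS1), KIF7 (589 bases with TICRR) and KIF27 (503 and 596 bases with 2 noncoding transcripts), and over 561 bases for KIF22, 441 for KIFC3 and 585 for KIF13B, each with a noncoding transcript.

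KIF11 (ENSG00000138160, chr10:92574105-92655395), or Eg5, pushes the spindle poles apart. It stood at 32.7, 31.9 and 29.5 FPKM in DMSO and 25.2, 20.9 and 21.2 FPKM in PD. PD replicate 1 was the nearest to DMSO, yet still below it, and the change was -0.47 ± 0.08 SE on the log2 scale (limma adjusted p = 0.0014). KIF18B, which trims astral microtubules, fell from 22.1 ± 0.314 to 15.8 ± 0.425 FPKM (SD, n = 3; log2 change -0.46, limma adjusted p = 4.2e-05). KIF22, a chromosome arm motor also called Kid, fell less, from 24.9 ± 0.460 to 21.0 ± 0.0357 FPKM (SD, n = 3; log2 change -0.23, limma adjusted p = 0.00065).

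KIFC1 and KIF15 did not pass the test. KIFC1, a minus-end motor of the kinesin-14 family that bundles microtubules at spindle poles, had 32.8, 34.0 and 36.8 FPKM in DMSO and 32.5, 33.6 and 31.9 FPKM in PD, with overlapping groups (log2 change -0.08 ± 0.05 SE, limma adjusted p = 0.21). KIFC1 was the mitotic kinesin of the second highest level after KIF2C in DMSO, and in PD it was the highest. KIF15, a motor that can keep the spindle bipolar when KIF11 is inhibited, had 7.88, 7.50 and 7.78 FPKM in DMSO and 8.073, 6.498 and 6.451 FPKM in PD (log2 change -0.13 ± 0.08 SE, limma adjusted p = 0.21). PD replicate 1 lay above all DMSO libraries and the other two PD libraries below them, and without PD replicate 1 the change was -0.22 with an adjusted p of 0.011. Thus the kinesins that keep a spindle bipolar, KIF11 and KIF15, were measured at different changes, but the difference between them was not tested.

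Of the kinesins of the midzone and of cytokinesis, 4 of 5 tested fell, with a median log2 change of -0.61. KIF14 (ENSG00000118193, chr1:200551497-200620751), which is needed to finish cytokinesis and binds PRC1 and citron kinase, had 10.58, 11.02 and 9.695 FPKM in DMSO and 5.133, 4.375 and 4.601 FPKM in PD. This was the largest fall among the tested kinesins in limma on log2(FPKM + 1), 2.22-fold by the means, without overlap (log2 change -1.004 ± 0.07 SE, limma adjusted p = 2.3e-05). It alone of the 32 kinesins fell by at least 2-fold on the tested scale, as 1.57% of all tested genes did, and it stood just past that limit. Leaving out DMSO replicate 1 or 2 or PD replicate 2 or 3 brought it under 2-fold, with log2 changes of -0.96 to -1.06 over all 6 omissions and its call by adjusted p kept.

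KIF23 (ENSG00000137807, chr15:69414246-69448427), the motor subunit of centralspindlin, measured 20.04, 19.82 and 17.98 FPKM in DMSO and 10.38, 9.966 and 10.54 FPKM in PD. The PD values lay close together, at 1.87-fold lower than DMSO (log2 change -0.84 ± 0.05 SE, limma adjusted p = 1.5e-05). KIF20A (ENSG00000112984, chr5:138178719-138187723), which brings the chromosomal passenger complex to the midzone, measured 20.1, 22.1 and 21.5 FPKM in DMSO and 14.5, 12.5 and 13.9 FPKM in PD. It was 1.56-fold lower, without overlap (log2 change -0.61 ± 0.06 SE, limma adjusted p = 0.00014). KIF23 overlaps the antisense transcript KIF23-AS1 over 231 bases, and KIF20A overlaps BRD8 over 132 bases and CDC23 over 74 bases on the other strand.

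KIF20B, a motor of late cytokinesis, fell from 9.95 ± 0.730 to 8.16 ± 0.931 FPKM (SD, n = 3; log2 change -0.26, limma adjusted p = 0.034), and this call was lost without DMSO replicate 1 (adjusted p = 0.094), DMSO replicate 2 (0.098) or PD replicate 3 (0.078). KIF4A, which caps the plus ends of midzone microtubules together with PRC1, had 20.03 ± 0.625 FPKM in DMSO and 17.9 ± 1.37 FPKM in PD (SD, n = 3). Its groups did not overlap, but its log2 change of -0.15 had an adjusted p of 0.054 in limma and of 0.024 in limma voom on fragments. KIF4B, an intronless copy of KIF4A, was listed at 0.0420 to 0.185 FPKM. How reads that match both near-identical copies were treated in counting is not given in the sources used here, so the levels of both are uncertain.

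**Figure D2:**
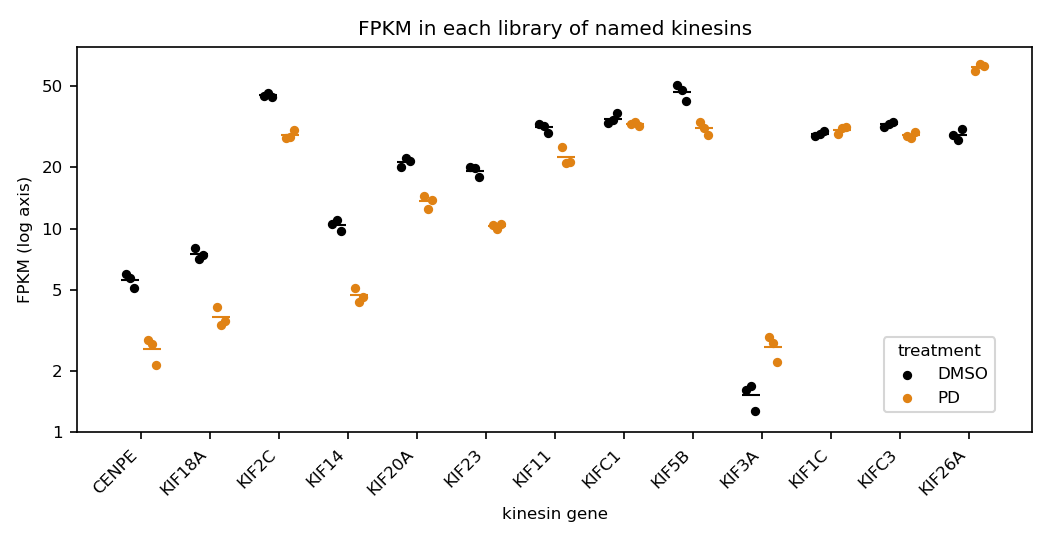
Points are the FPKM of single libraries (log axis) in DMSO (black) and PD (orange), with a line at each group mean. The kinesins are those whose values are given in every library, except KIF15 and KIF3C. The 6 mitotic genes at the left, CENPE to KIF23, had no overlap between groups, KIFC1 and KIF1C overlapped, and KIF26A lay at 27.1 to 30.8 FPKM in DMSO and 59.6 to 64.0 FPKM in PD.

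Promoters of cell cycle genes that are transcribed late often hold a cell cycle homology region, a 6-letter element near the transcription start that is read by the MuvB complex, and CCAAT boxes bound by NF-Y upstream of it. RefSeq promoters of GRCh38.p14 were therefore searched on both strands for TTTGAA, for the variant TTTAAA, for the rarer variant TTCGAA and also for the box CCAAT, in 300 bases from 250 before to 50 after the start. No matches of different motifs overlapped in the kinesin promoters. Entries were found for 35 of the 43 kinesins, 15 mitotic, 11 transport and 9 other. Only the first entry of each gene was used, so matches hold for that start, and any other start was not searched. The promoters of the 6 mitotic kinesins with the largest falls are shown because their transcripts moved together, with every match in capitals (ATTGG and TTCAAA are CCAAT and TTTGAA on the other strand), and each runs 5′ to 3′ along the gene.
KIF14, chr1:200620702-200621001, minus strand: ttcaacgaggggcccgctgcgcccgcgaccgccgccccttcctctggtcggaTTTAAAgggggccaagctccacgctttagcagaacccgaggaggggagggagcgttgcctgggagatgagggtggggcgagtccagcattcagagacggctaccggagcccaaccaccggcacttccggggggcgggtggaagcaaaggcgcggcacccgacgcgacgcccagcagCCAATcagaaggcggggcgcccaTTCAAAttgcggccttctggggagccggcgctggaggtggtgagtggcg
CENPE, chr4:103198294-103198593, minus strand: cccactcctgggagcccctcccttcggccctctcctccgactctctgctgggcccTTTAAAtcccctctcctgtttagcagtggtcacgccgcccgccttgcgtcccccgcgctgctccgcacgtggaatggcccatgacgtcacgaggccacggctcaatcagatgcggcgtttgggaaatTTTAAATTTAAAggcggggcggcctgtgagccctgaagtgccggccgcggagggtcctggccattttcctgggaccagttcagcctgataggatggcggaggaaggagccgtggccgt
KIF18A, chr11:28108107-28108406, minus strand: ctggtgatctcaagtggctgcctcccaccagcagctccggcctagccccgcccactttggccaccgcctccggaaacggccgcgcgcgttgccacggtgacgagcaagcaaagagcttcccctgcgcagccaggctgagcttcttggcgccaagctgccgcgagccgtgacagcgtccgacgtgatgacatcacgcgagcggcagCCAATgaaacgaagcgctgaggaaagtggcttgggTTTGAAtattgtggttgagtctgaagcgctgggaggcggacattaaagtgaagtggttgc
KIF23, chr15:69414099-69414398, plus strand: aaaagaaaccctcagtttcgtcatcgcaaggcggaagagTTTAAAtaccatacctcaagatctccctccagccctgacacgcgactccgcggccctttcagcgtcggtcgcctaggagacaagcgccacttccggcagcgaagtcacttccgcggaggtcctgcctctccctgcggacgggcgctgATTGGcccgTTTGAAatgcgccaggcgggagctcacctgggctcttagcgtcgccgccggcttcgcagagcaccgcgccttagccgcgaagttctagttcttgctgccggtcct
KIF2C, chr1:44739587-44739886, plus strand: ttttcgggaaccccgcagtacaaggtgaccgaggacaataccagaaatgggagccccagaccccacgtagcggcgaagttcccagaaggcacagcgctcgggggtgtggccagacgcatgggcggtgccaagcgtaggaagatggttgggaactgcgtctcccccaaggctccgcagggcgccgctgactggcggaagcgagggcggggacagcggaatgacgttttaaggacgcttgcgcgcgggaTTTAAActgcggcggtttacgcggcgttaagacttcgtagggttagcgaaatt
KIF20A, chr5:138178862-138179161, plus strand: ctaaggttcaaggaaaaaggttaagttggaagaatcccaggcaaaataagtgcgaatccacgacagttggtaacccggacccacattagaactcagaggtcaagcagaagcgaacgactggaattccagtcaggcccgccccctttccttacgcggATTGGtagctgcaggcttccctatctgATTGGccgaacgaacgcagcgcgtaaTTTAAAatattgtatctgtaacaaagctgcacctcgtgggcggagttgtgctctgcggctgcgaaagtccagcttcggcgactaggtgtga

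At least 1 of the 3 hexamers was present in 14 of 15 mitotic kinesin promoters (93.3%), in 2 of 11 of transport kinesins (18.2%), in 1 of 9 of other kinesins (11.1%) and in 25.3% of all 27305 promoters in the table. CCAAT was present in 11 of 15 mitotic promoters (73.3%) against 35.7% of all promoters, and a hexamer together with CCAAT in 73.3% of mitotic promoters against 9.95% of all. Counted from the transcription start, with negative positions upstream, CCAAT of KIF18A began at -45 and its TTTGAA at -10. In KIF14 CCAAT began at -22 and the nearest hexamer at base 2 of the transcript, and in KIF20A the nearer CCAAT began at -67 and the hexamer at -41. CENPE and KIF2C held TTTAAA without CCAAT, in KIF2C at -3 and in CENPE at -195, -68 and -62. A hexamer that began 20 to 40 bases after the start of a CCAAT, a window chosen after these positions had been seen, was found in 8 of 15 mitotic promoters (53.3%), in none of the transport or other kinesins with an entry and in 1.23% of all promoters. The hexamers did not separate mitotic kinesins that fell from those that did not pass, since all 10 of the former and all 3 of the latter (KIF4A, KIF15 and KIFC1) held 1. The match is a description of letters, and binding was not measured.

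Transport kinesins did not move as a class. KIF5B (ENSG00000170759, chr10:32009015-32056425), the widely expressed heavy chain of kinesin-1, which carries mitochondria, lysosomes and vesicles, had the highest mean of the tested kinesins in DMSO, though its range met that of KIF2C, with 50.6, 48.0 and 42.5 FPKM, and it had 33.4, 31.2 and 28.7 FPKM in PD. It fell 1.51-fold without overlap (log2 change -0.58 ± 0.08 SE, limma adjusted p = 0.00051), the largest fall outside the mitotic class. KIF5A and KIF5C, the kinesin-1 heavy chains of neurons, were listed at no more than 0.00953 and 0.0248 FPKM.

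Of kinesin-2, the motor of anterograde transport in cilia, 2 of 3 tested genes rose. KIF3A (ENSG00000131437, chr5:132692628-132737638) and KIF3B form its heterodimer. KIF3A had 1.62, 1.70 and 1.28 FPKM in DMSO and 2.93, 2.76 and 2.22 FPKM in PD, a level 1.72-fold higher without overlap (log2 change 0.52 ± 0.10 SE, limma adjusted p = 0.0040). KIF3B, at a higher level, rose from 22.8 ± 0.308 to 32.0 ± 1.63 FPKM (SD, n = 3; log2 change 0.47, limma adjusted p = 8.9e-05). KIFAP3, the subunit that links this heterodimer to cargo, rose from 4.89 ± 0.222 to 7.06 ± 0.0954 FPKM (SD, n = 3; log2 change 0.45 ± 0.05 SE, limma adjusted p = 0.00018). KIF17, the homodimeric kinesin-2, had 1.48 ± 0.264 and 1.30 ± 0.0572 FPKM (SD, n = 3) in overlapping groups and did not pass (log2 change -0.10, limma adjusted p = 0.40).

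KIF3C, a kinesin-2 subunit that pairs with KIF3A, was under the minimum for the test. It was listed at 0.145, 0.177 and 0.219 FPKM in DMSO and 0.873, 0.695 and 0.795 FPKM in PD, with all PD values above all DMSO values and a ratio of means of 4.37. In limma voom on fragments worked back from the FPKM its log2 change was 2.11 ± 0.25 SE (adjusted p = 9.3e-07), on 16 to 101 fragments per library, and in that fit 33.8% of 15309 genes rose, 6.79% by at least 2-fold. That fit called 61.5% of all genes. It tested 34 kinesins, of which 10 rose and 16 fell against 27.7% of all genes, and 3 of those that fell (KIF14, CENPE and KIF18A) did so by at least 2-fold against 5.0%. KIF3C is named here after its values had been seen.

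The kinesin-3 family, fast motors of vesicles and endosomes, had 3 rises and 1 fall among 5 tested genes. KIF1B, a motor of mitochondria and synaptic vesicle precursors, rose from 6.56 ± 0.190 to 8.65 ± 0.387 FPKM (SD, n = 3; log2 change 0.35, limma adjusted p = 0.00068). KIF13B rose from 1.00 ± 0.0548 to 1.72 ± 0.0223 FPKM (SD, n = 3; log2 change 0.44, limma adjusted p = 0.0013), and KIF16B, an early endosome motor, from 2.93 ± 0.0776 to 3.63 ± 0.338 FPKM (SD, n = 3; log2 change 0.23, limma adjusted p = 0.021). KIF13A, which moves recycling endosomes, fell from 9.19 ± 0.151 to 7.55 ± 0.145 FPKM (SD, n = 3; log2 change -0.25, limma adjusted p = 0.0013). KIF13A and KIF13B, which are close relatives, thus changed in opposite directions.

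KIF1C, a kinesin-3 of high level here, had 28.4, 29.2 and 30.2 FPKM in DMSO and 29.2, 31.3 and 31.4 FPKM in PD. Its groups overlapped, and it did not pass (log2 change 0.06 ± 0.04 SE, limma adjusted p = 0.23; -0.0689 with upper quartile scaling). KIF1A, the neuronal member, was listed at no more than 0.0193 FPKM. The call of KIF16B was lost without DMSO replicate 1 (adjusted p = 0.050 when rounded), DMSO replicate 2 (0.062), PD replicate 1 (0.061) or PD replicate 3 (0.055).

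KIFC3, a minus-end motor that acts at cell junctions and the Golgi apparatus, had 31.5, 32.5 and 33.4 FPKM in DMSO and 28.4, 27.8 and 29.9 FPKM in PD. The groups did not overlap, though the fall was small (log2 change -0.17 ± 0.04 SE, limma adjusted p = 0.0078). KIFC2 had 2.80 ± 0.495 and 3.41 ± 0.252 FPKM (SD, n = 3) and did not pass (log2 change 0.22, limma adjusted p = 0.10), and it shares 791 exon bases with FOXH1 on the other strand.

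**Figure D3:**
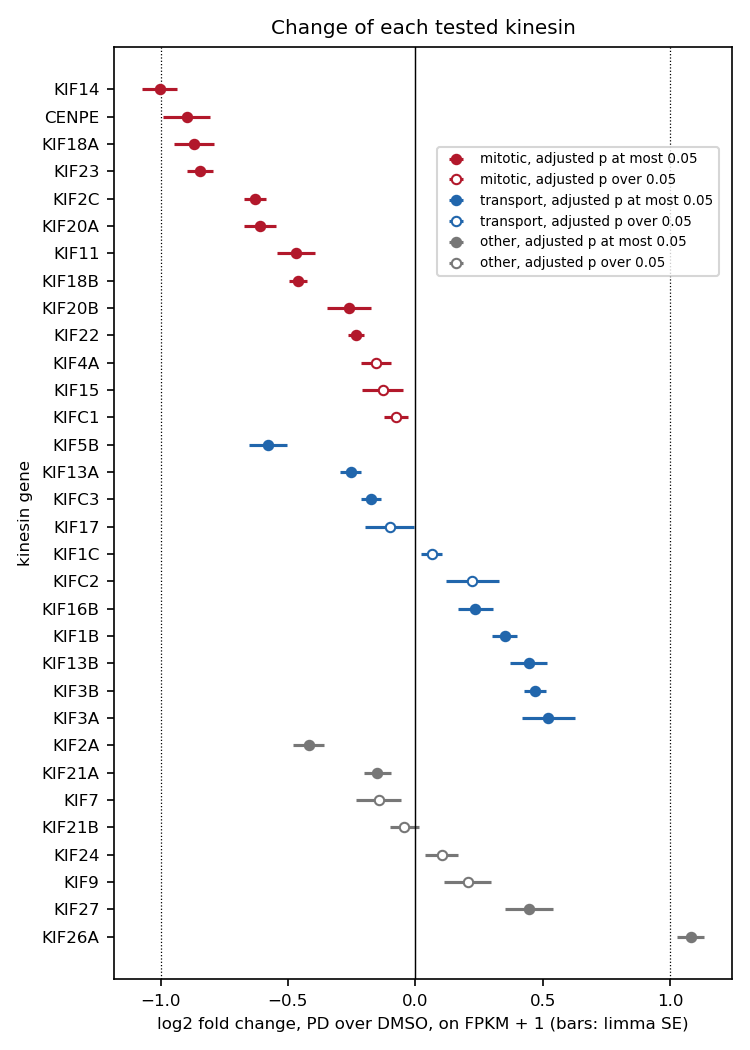
Points give the log2 fold change, PD over DMSO, of log2(FPKM + 1) for each tested kinesin with its limma standard error, filled where the adjusted p was at most 0.05, and dotted lines mark 2-fold. All 13 mitotic kinesins (red) lay below 0, with KIF14 at -1.004, while transport kinesins (blue) ran from -0.58 for KIF5B to 0.52 for KIF3A and KIF26A (grey) lay at 1.08.

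Among the kinesins that reached the minimum of 0.5 FPKM, which leaves out KIF3C, the largest rise was that of KIF26A (ENSG00000066735, chr14:104136454-104180894), an atypical kinesin that binds microtubules without ATPase activity and is known for restraining growth factor signalling in enteric neurons. It stood at 28.8, 27.1 and 30.8 FPKM in DMSO and 59.6, 64.0 and 63.0 FPKM in PD. All PD values lay far above the DMSO values, and the mean was 2.15-fold higher (log2 change 1.08 ± 0.05 SE, limma adjusted p = 6.3e-06). It alone of the kinesins tested on log2(FPKM + 1) rose by at least 2-fold, as 2.04% of all tested genes did, and its log2 change was 0.95 with upper quartile scaling. In PD it was the most abundant kinesin per length. Its relative KIF26B was listed at 0.0746 to 0.119 FPKM in the 6 libraries, and the groups overlapped.

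KIF27, a kinesin-4 relative of the cilium and Hedgehog regulator KIF7, rose from 0.627 ± 0.0881 to 1.22 ± 0.156 FPKM (SD, n = 3; log2 change 0.45, limma adjusted p = 0.0055). KIF7 itself had 2.12 ± 0.229 and 1.82 ± 0.218 FPKM (SD, n = 3) in overlapping groups and did not pass (log2 change -0.14, limma adjusted p = 0.20). KIF21A, a motor that halts microtubule growth at the cell cortex, had a small fall from 11.02 ± 0.222 to 9.85 ± 0.662 FPKM (SD, n = 3; log2 change -0.15, limma adjusted p = 0.044), which was lost in 5 of the 6 fits that left out a library, with adjusted p-values of 0.060 to 0.13. KIF21B did not pass (log2 change -0.04, limma adjusted p = 0.53).

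KIF2A, a microtubule depolymerase of spindle poles and of interphase cells that was kept outside the mitotic class, fell from 16.3 ± 0.140 to 11.98 ± 1.07 FPKM (SD, n = 3; log2 change -0.42, limma adjusted p = 0.00079). It shares 2446 exon bases, 18.7% of its exons, with DIMT1 on the other strand and is therefore uncertain. KIF24, which limits cilium formation, had 2.75 ± 0.152 and 3.03 ± 0.185 FPKM, and KIF9, a motor of motile cilia, 0.705 ± 0.124 and 0.963 ± 0.0379 FPKM (SD, n = 3), and neither passed (limma adjusted p = 0.21 and 0.096). KIF12 and KIF25 were each at 0 in 5 of 6 libraries.

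The promoters of KIF5B, KIF3A and KIF26A are shown as a contrast to those of the mitotic kinesins. That of KIF5B, which fell, held TTTGAA at -140 and CCAAT at -59, whereas those of KIF3A and KIF26A, which rose, held neither a hexamer nor CCAAT in these 300 bases. This does not separate direction outside the mitotic class, since KIF16B, which rose, held TTTAAA, KIF3B and KIF1B, which rose, held CCAAT, and KIF13A, KIF2A and KIF21A, which fell, held none.
KIF5B, chr10:32056376-32056675, minus strand: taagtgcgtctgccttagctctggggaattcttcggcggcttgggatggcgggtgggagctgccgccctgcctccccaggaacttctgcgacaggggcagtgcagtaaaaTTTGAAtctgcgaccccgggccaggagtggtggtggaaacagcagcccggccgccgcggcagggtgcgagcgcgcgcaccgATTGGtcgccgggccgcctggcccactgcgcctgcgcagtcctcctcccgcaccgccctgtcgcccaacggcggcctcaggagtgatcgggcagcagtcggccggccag
KIF3A, chr5:132737497-132737796, minus strand: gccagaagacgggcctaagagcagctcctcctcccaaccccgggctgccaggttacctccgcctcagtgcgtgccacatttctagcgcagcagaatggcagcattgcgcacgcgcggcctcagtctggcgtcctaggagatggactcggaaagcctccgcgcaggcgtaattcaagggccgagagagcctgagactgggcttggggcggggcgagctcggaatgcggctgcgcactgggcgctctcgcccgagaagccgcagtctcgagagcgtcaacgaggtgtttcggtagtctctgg
KIF26A, chr14:104138337-104138636, plus strand: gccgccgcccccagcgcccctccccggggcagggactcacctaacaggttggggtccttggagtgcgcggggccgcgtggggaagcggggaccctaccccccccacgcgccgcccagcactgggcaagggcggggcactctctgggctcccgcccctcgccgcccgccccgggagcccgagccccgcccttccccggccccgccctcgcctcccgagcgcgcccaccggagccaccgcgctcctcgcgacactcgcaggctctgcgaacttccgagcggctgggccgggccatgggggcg

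The classes were also compared by their share of all kinesin transcripts, in which a change of 1 class shifts the shares of the others. Summed over its members the mitotic class reached 260.8, 264.1 and 255.2 FPKM in DMSO and 195.9, 183.7 and 187.0 FPKM in PD. Its share of the summed FPKM of all 40 listed kinesins was 53.2%, 53.8% and 52.9% in DMSO and 43.7%, 42.5% and 42.6% in PD, or 53.3% ± 0.464 and 42.9% ± 0.642 (SD, n = 3). The transport class summed to 157.3 ± 2.53 FPKM in DMSO and to less, 152.1 ± 2.41 FPKM, in PD (SD, n = 3). KIF5B made up 47.0 and 31.1 FPKM of these sums, a larger drop than that of the class. The share of the transport class was nevertheless higher in PD, with 32.2% ± 0.264 in DMSO and 34.6% ± 0.234 in PD (SD, n = 3). The other kinesins summed to 70.6 ± 2.20 and 98.9 ± 0.398 FPKM (SD, n = 3), of which KIF26A made up 28.9 and 62.2 FPKM. The libraries of the groups did not overlap in any of these shares, which are a description of sums and carry no test. With fragments in place of FPKM, so that long transcripts weigh more, the mitotic share was 40.5% in DMSO and 30.4% in PD.

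**Figure D4:**
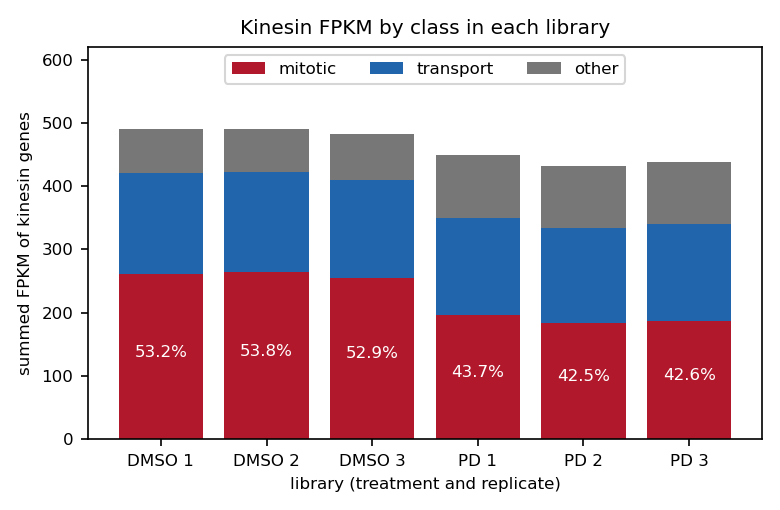
Bars are the summed FPKM of the listed kinesins in each library, split into mitotic (red), transport (blue) and other (grey) classes, with the mitotic share printed in the bar. The mitotic part was 255.2 to 264.1 FPKM in DMSO and 183.7 to 195.9 FPKM in PD. The transport part was 154.4 to 159.3 FPKM in DMSO and 149.5 to 154.2 FPKM in PD.

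Lists of genes that work with kinesins were set beside the classes, and the same background of 26.2% lower and 31.9% higher applies to them. Of 18 partners of mitotic kinesins, which load, activate or anchor them, 15 fell and 1 rose, with a median log2 change of -0.58. PLK1, the kinase that prepares several of these motors for the midzone, fell from 27.3 ± 0.371 to 9.003 ± 0.333 FPKM (SD, n = 3; log2 change -1.50 ± 0.04 SE, limma adjusted p = 1.4e-06). AURKA, the spindle pole kinase, fell from 51.8 ± 3.19 to 19.7 ± 0.692 FPKM (log2 change -1.35 ± 0.05 SE, adjusted p = 3.2e-06), and ECT2, the exchange factor that centralspindlin brings to the midzone, from 43.0 ± 0.656 to 18.2 ± 1.80 FPKM (log2 change -1.205 ± 0.07 SE, adjusted p = 9.6e-06). PLK1 and AURKA were among the genes that the study singled out on these libraries. For both, the study also reported lower transcript by RT-qPCR and lower protein by Western blot, which were not examined here. AURKB, the kinase of the chromosomal passenger complex that KIF20A carries, was the 1 partner that rose, from 32.4 ± 1.35 to 40.8 ± 1.64 FPKM (log2 change 0.32 ± 0.04 SE, adjusted p = 0.00064), and it is named here after its values had been seen.

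Of 15 tested kinesin light chains and adaptors 7 rose and 1 fell, with a median log2 change of 0.14. The light chain KLC3, counted among the 7, passed the minimum through the PD group alone, with 0.310 ± 0.0224 FPKM in DMSO and 0.848 ± 0.0785 FPKM in PD (SD, n = 3), so it had to differ and its call is no support. KIFAP3, described with kinesin-2, had the next largest change upward on the log2(FPKM + 1) scale, an order that holds for that scale and not for ratios of FPKM. KTN1, or kinectin, a membrane anchor of kinesin-1, was the 1 that fell, from 15.8 ± 0.406 to 11.6 ± 0.501 FPKM (SD, n = 3; log2 change -0.42 ± 0.04 SE, limma adjusted p = 0.00017). Of 23 tested genes listed for dynein and dynactin, the motor of the opposite direction, 13 rose and 3 fell, with a median of 0.17. Besides subunits this list holds regulators and adaptors, of which PAFAH1B1 fell, NDEL1 and BICD2 rose and NDE1 and BICD1 did not pass. The light chains DYNLL2 (log2 change 0.66 ± 0.05 SE, limma adjusted p = 3.4e-05), DYNLT3 (0.59 ± 0.07 SE, adjusted p = 0.00028) and DYNLT1 (0.50 ± 0.06 SE, adjusted p = 0.00024) changed most.

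Markers of the G2/M phase fell as the mitotic kinesins did, S phase markers mostly rose, and their part in the kinesin changes was not tested. Of 16 G2/M markers 13 fell and 1 rose, with a median log2 change of -0.73, and the largest were ASPM (from 30.9 ± 0.939 to 10.6 ± 0.816 FPKM), TOP2A (from 101.5 ± 2.12 to 48.8 ± 4.62 FPKM) and CCNB1 (from 64.3 ± 1.03 to 31.0 ± 0.174 FPKM; SD, n = 3), at log2 changes of -1.46 ± 0.06, -1.04 ± 0.06 and -1.03 ± 0.03 SE (limma adjusted p = 3.2e-06, 1.4e-05 and 1.6e-06). Of 16 S phase markers 11 rose and 4 fell, with a median of 0.35. The 4 that fell were the helicase subunits MCM2, MCM3, MCM5 and MCM6, whereas MCM4 rose and MCM7 did not pass. CDC6, which loads the replicative helicase, rose from 17.4 ± 0.532 to 39.6 ± 0.841 FPKM (SD, n = 3; log2 change 1.15 ± 0.04 SE, limma adjusted p = 2.4e-06), followed by the cyclins CCNE2 (0.65 ± 0.08 SE, adjusted p = 0.00037) and CCNE1 (0.63 ± 0.06 SE, adjusted p = 0.00014). The median of the mitotic kinesins thus had the sign of the G2/M list. That of the transport kinesins had the sign of the S phase list, but so had those of the light chains and adaptors (0.14) and of dynein and dynactin (0.17). This compares only the signs of medians, and a link to S phase was not tested.

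**Figure D5:**
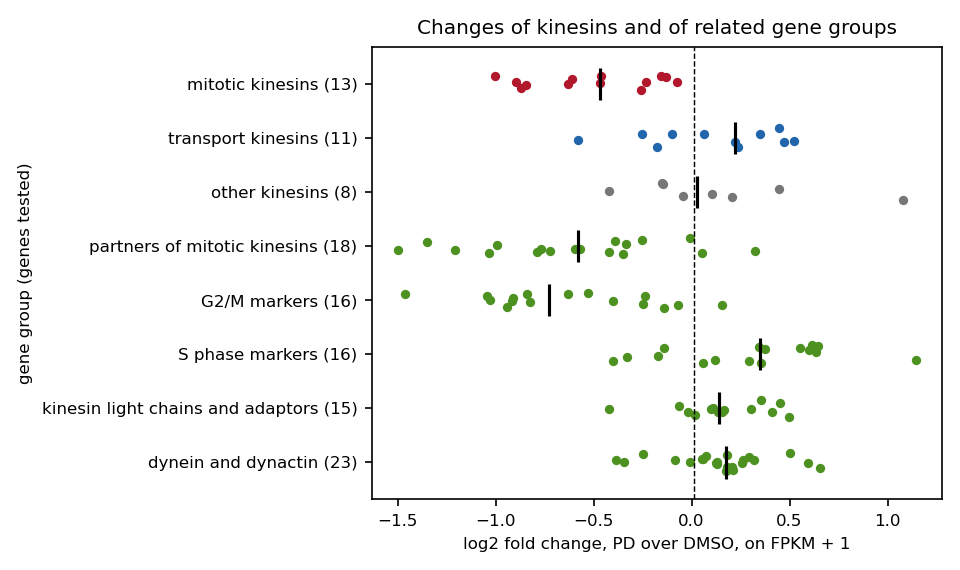
Points are the log2 fold changes, PD over DMSO, of the tested genes in each kinesin class and each related gene list, black bars mark the medians and the dashed line the median of all 14400 genes (0.01). Medians were -0.47 for mitotic and 0.22 for transport kinesins, -0.58 for partners of mitotic kinesins, -0.73 for G2/M and 0.35 for S phase markers, 0.14 for light chains and adaptors and 0.17 for dynein and dynactin.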

How the data were processed

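RNA of 3 PD and 3 DMSO plates of HepG2 cells was sequenced, and samples were grouped by the labels. From poly(A) RNA, NEBNext Ultra libraries were made. The authors used HISAT2 with hg38 for alignment and HTSeq 0.6.0 for counting, and deposited FPKM for 28563 genes. All value columns were used. Tests had been planned for either FPKM or counts, and the FPKM form was used.

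Genes that averaged 0.5 FPKM or more were fitted by limma 3.58.1 in R 4.3.3 on log2(FPKM + 1), with a trended prior variance and Benjamini-Hochberg adjustment, and called at an adjusted p of at most 0.05. On this scale the changes of low genes come out too small. Whole fragments (within 0.001) were worked back from the FPKM of all genes, from the GENCODE release 44 exon length for 12879 genes and from a length found in the values for 15684. They give depth and limma voom (at least 10 fragments in 3 or more libraries), and at low levels they are ambiguous. Counting error alone is covered by fragment numbers. The fits were tested on simulated data in which far fewer genes changed than were called here. There limma on log2(FPKM + 1) called 72 of 100 genes changed by 0.5 on the log2 scale, with a median fitted change of 0.438, and 98 of 100 changed by 1. Voom called 93 of 100 changed by 0.5. The changed genes of the simulation were drawn at a higher minimum level than that of the test, with a spread setting shared by all genes. Recovery among kinesins near 0.5 FPKM was therefore not tried. Exact permutation tests used scipy 1.17.1. Coordinates and overlaps are from GENCODE release 44.

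The members, classes and gene lists were chosen with earlier results of these data known, so they are descriptions. Values in every library were given for CENPE, KIF14 and KIF18A, for called members with a log2 change of at least 0.5, and for the 3 highest members of the mitotic and transport classes, and each gene list was represented by its 3 largest called changes. Of the other members, KIF15 and KIF3C were also given in every library, outside this rule. Replicate numbers were not treated as pairs in the main fit. Correlations of deviations between libraries of the same number were -0.03, -0.0046 and 0.0898. Those between libraries of different numbers were -0.0835 to 0.0847. Alternatives were a pseudocount of 0.1, no filter, a replicate block, median-of-ratios and upper quartile scaling, voom, and each library left out in turn.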

Additional observations from a re-analysis of the deposited data

How the results depend on the processing

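The direction of the mitotic against the transport class was kept in all alternatives run, and no mitotic kinesin rose in any. With a replicate block no kinesin gained or lost its call (15 lower, 7 higher), with 8032 genes called in all against 8368. Counts at the 2-fold limit were small and moved: 3 kinesins fell by at least 2-fold with a pseudocount of 0.1, 2 with upper quartile scaling, 3 with voom (KIF14, CENPE and KIF18A) and 0 to 1 when a library was left out, against 1, and 0 rose with upper quartile scaling and 2 with voom (KIF26A and KIF3C), against 1. Upper quartile scaling moved the median of all genes from 0.01 to -0.09 and the share of rises among all calls from 54.8% to 39.1%. Under it the median of mitotic kinesins was -0.60, that of transport kinesins 0.12 and the change of KIF1C -0.0689. The mitotic median was -0.55 to -0.45 when a library was left out. The transport median was 0.29 with a pseudocount of 0.1, 0.0641 without a filter, 0.30 with voom and 0.12 to 0.25 when a library was left out. KIF21B ranged from -0.0716 to 0.0073, above 0 without DMSO replicate 3. The mitotic share was 40.5% in DMSO and 30.4% in PD with fragments, and 51.3% and 40.5% without KIF4A and KIF4B. KIF20B, KIF16B and KIF21A lost their calls without a filter, and KIF16B also under upper quartile scaling. KIF4A was called in 4 alternatives, KIF15 and KIFC2 in 2 each, and KIFC1, KIF21B and KIF9 in 1 each. When a library was left out, 13 to 17 kinesins fell and 6 to 8 rose. Except where a construction shows it, the cause was not tested. Depth limits kinesins near 1 FPKM, such as KIF27 and KIF9.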

Other observations

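Transcripts named after kinesins that are no protein-coding members were also listed. KIF28P, a pseudogene of an ancestral kinesin on chromosome 1, had 0.791, 0.816 and 0.516 FPKM in DMSO and 0.221, 0.244 and 0.175 FPKM in PD, under the minimum for the test, and in limma voom its log2 change was -1.67 ± 0.32 SE (adjusted p = 0.00018). It shares 958 exon bases with LINC01341 on the other strand and is uncertain. KIF26A-DT, a long noncoding RNA annotated within the span of KIF26A at chr14:104137150-104137898, had 1.63, 2.97 and 2.91 FPKM in DMSO and 4.07, 5.93 and 3.72 FPKM in PD (log2 change 0.67 ± 0.20 SE, limma adjusted p = 0.022), on 13 to 48 fragments per library. KIF9-AS1 and KIF23-AS1 did not pass (log2 changes 0.23 and -0.23, limma adjusted p = 0.15 for both), and their groups overlapped. In limma voom KIF9-AS1 passed (log2 change 0.70, adjusted p = 0.034) and KIF23-AS1 did not (-0.67, adjusted p = 0.080). KIF9-AS1 shares 870 exon bases with KIF9 and KIF23-AS1 shares 797 with PAQR5, on the other strand, so both are uncertain.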
